A study of Homo sapiens with 8 samples.

Results

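Genes of glycolysis and of the response to low oxygen were followed across 8 expression arrays of 2 human cancer cell lines. The set holds 39 genes chosen by gene symbol: 16 genes of glycolytic enzymes, 8 genes of sugar and lactate transport and of the control of glycolytic flux, and 15 other genes that respond to hypoxia. They were chosen with earlier results of these data known. Of these, 36 had a probe set (a group of short probes for 1 transcript) with a single gene symbol, among 11963 such genes on the array. SLC16A1, SLC16A3 and ANKRD37 had no match in the probe table used here and are not analysed. The probe set with the highest mean over the 8 arrays stood for each gene. A gene was tested when its log2 value exceeded 4 in at least 2 arrays, which held for 34 of the 39 genes and for 7696 genes overall. PFKFB4, a kinase that tunes glycolytic flux, lay between log2 2.08 and 2.21 on all arrays. PDK3, a kinase that inhibits pyruvate dehydrogenase, lay between 2.34 and 2.63, and neither gene was tested.

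The arrays fell into 4 groups of 2: Caco-2 control, Caco-2 shRNA, HUG1N control and HUG1N shRNA. Caco-2 is an established line from a colorectal adenocarcinoma, and HUG1N (HuG-1) is an established gastric cancer line. The short hairpin RNA (shRNA) targeted GATA6, a transcription factor of the gut endoderm, and infected cells were selected with puromycin. The labels leave unstated the treatment of the control cells, the number of hairpins, the duration of selection, whether cells were a clone or a pool, the oxygen and glucose supply, and whether the arrays of a group were separate cultures. Any p-value therefore reflects array-to-array spread alone, which may be technical, and with 2 arrays a group the precision is limited throughout. In bulk RNA, fewer cells of a type and less RNA per cell cannot be told apart.

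Glycolysis converts glucose to pyruvate in the cytosol, and lactate dehydrogenase reduces pyruvate to lactate when it is not passed to the mitochondria. When oxygen is scarce, the hypoxia-inducible factors, made of an alpha subunit (HIF1A or EPAS1) and ARNT, switch on glucose uptake, glycolytic enzymes, angiogenic factors and mitophagy genes. The alpha subunits are controlled mainly by oxygen-dependent breakdown of the protein, so their transcript level is not a measure of their activity. Many gut tumours also run glycolysis at a high rate in the presence of oxygen.

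Arrays of a group correlated at r from 0.995 to 0.997 across genes, and the targeted gene moved little. GATA6 changed by -0.42 in Caco-2 (SE 0.10, limma adjusted p = 0.0224) and by -0.25 in HUG1N (SE 0.10, adjusted p = 0.0879). All 6 epithelial markers exceeded log2 4 in every group, and with the shRNA 4 of them were called higher in Caco-2 and 5 in HUG1N. Of 8 intestinal markers, 6 exceeded log2 4 in both Caco-2 groups and 4 in both HUG1N groups. Of 8 gastric markers, 3 did so in both Caco-2 groups, 6 in HUG1N control and 5 in HUG1N shRNA. With the shRNA in Caco-2, 2 of 6 tested gastric and 3 of 7 tested intestinal markers were called lower and 0 higher. In HUG1N, 3 gastric and 2 intestinal markers were called lower, and 1 of each higher. Of all genes, 19.5% were called higher and 19.2% lower in Caco-2, and 24.7% higher and 23.9% lower in HUG1N. The log2 of the summed gastric signal was 11.89 to 11.97 in Caco-2 control and 8.53 to 8.75 in Caco-2 shRNA arrays. In HUG1N it was 14.96 to 15.03 and 14.35 to 14.63. Among markers of other cells, the fibroblast genes numbered 0 to 2 of 9, the immune genes 1 to 2 of 7 and the endothelial genes 0 to 1 of 5. The log2 of the summed fibroblast signal was 5.86 to 5.95 in Caco-2 control and 7.81 to 7.96 in Caco-2 shRNA arrays, where COL1A1 and LUM exceeded log2 4, and 5.77 to 5.98 over the HUG1N arrays. The part of the epithelial, intestinal, gastric and fibroblast markers in the member changes was not tested. The 3′ minus 5′ gap of ACTB, a measure of RNA degradation or truncated labelling, averaged 1.92 in Caco-2 control, 1.55 in Caco-2 shRNA, 2.51 in HUG1N control and 3.73 in HUG1N shRNA arrays. The mean of the BioB hybridisation controls was 4.65 in the HUG1N shRNA arrays and 9.41 to 9.96 in the other groups, and this difference and the shRNA in HUG1N cannot be told apart.

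The 4 members with the largest called falls in HUG1N were ENO2, PDK1, ALDOC and BHLHE40. The 250 bases before their transcription starts are shown as a description only. The sequences are from RefSeq on GRCh38.p14, 5′ to 3′ on the gene's own strand. Capitals mark the core of the hypoxia response element (ACGTG or GCGTG) and a GATA motif (AGATAA and AGATAG, or either of them with T as the first letter), searched on both strands. Since CACGTG reads the same on both strands, it counts as 2 matches that overlap. ENO2 lies at chr12:6914330-6914579 (plus strand), PDK1 at chr2:172555123-172555372 (plus strand, the most upstream of 2 listed starts), ALDOC at chr17:28576896-28577145 (minus strand) and BHLHE40 at chr3:4979187-4979436 (plus strand).
ENO2: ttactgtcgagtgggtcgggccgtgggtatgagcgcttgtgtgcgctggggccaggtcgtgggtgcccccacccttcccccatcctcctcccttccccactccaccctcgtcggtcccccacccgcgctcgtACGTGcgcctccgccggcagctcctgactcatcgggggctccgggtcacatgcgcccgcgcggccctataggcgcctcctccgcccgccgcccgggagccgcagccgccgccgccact
PDK1: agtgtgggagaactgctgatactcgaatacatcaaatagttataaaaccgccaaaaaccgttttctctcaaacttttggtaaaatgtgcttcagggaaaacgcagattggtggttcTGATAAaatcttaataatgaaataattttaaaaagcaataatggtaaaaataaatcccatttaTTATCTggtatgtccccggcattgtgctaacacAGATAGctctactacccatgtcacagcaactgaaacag
ALDOC: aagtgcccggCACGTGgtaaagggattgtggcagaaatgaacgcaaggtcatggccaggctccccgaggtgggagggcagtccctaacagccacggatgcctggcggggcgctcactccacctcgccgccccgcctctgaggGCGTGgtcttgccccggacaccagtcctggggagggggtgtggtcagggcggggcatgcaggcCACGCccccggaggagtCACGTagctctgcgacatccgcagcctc
BHLHE40: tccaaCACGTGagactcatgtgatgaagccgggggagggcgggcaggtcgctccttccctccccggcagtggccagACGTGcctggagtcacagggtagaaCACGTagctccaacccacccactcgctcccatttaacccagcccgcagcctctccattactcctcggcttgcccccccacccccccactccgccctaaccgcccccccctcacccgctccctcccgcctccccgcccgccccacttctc

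The ENO2 window held 1 hypoxia response core, 118 bases before the start, and no GATA motif. The ALDOC window held 5 cores and the BHLHE40 window 4, with no GATA motif in either. The PDK1 window shown held no core and 3 GATA motifs, whereas the window of its other listed start held 2 cores and no GATA motif. Over all members with an entry, 38 of 64 windows (34 genes) held at least 1 core, or 59.4%, against 43.2% of 35116 windows of all genes. The share was 50.0% for the enzymes, 66.7% for transport and flux control and 75.0% for the other hypoxia genes. These 34 genes are not the 34 tested: SLC16A3, ANKRD37, PDK3 and PFKFB4 are among them. A gene with several listed starts counts once per start. A GATA motif was present in 9 of the 64 windows (14.1%) and in 22.3% of all windows. A match is a description of letters, not a bound site.

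In HUG1N, the shRNA arrays were lower than the controls across most of the pathway, and no member was called higher. Of the 34 members tested, 25 were called lower (limma adjusted p under 0.05), where 23.9% of all genes were called lower and 24.7% higher. These were 14 of 16 enzymes, 3 of 4 transport and flux genes and 8 of 14 other hypoxia genes. SLC2A3 is among the 25 although no HUG1N array had it over log2 4, which leaves 24. The median log2 change was -0.77 for the enzymes, -1.02 for transport and flux control and -0.59 for the other hypoxia genes, against 0 for all genes tested. Both shRNA arrays lay below both controls for 16 of 16 enzymes, where this held for 37.3% of all genes. It held for 9 of 14 other hypoxia genes, and the remaining 5 overlapped. Without either HUG1N control array, which leaves 1 array in that group, the calls of SLC2A1, HK2, LDHA, BNIP3L, NDRG1 and BHLHE40 were lost. The HUG1N results stand beside the ACTB gap of 3.73 against 2.51 and the lower BioB controls given above, whose part in these changes was not tested.

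In Caco-2 members were called in both directions. Of 34 members, 9 were called higher, against 19.5% of all genes, and 5 lower, against 19.2%. Among the enzymes 3 were higher and 4 lower, and among the other hypoxia genes 5 were higher and 1 lower. The median change was -0.09 for the enzymes and 0.36 for the other hypoxia genes, against -0.003 for all genes. Fewer members were called higher, and fewer lower, with each of the 4 Caco-2 arrays left out in turn. Such a fit leaves 1 array in a group, so a lost call does not show that the counts rest on that array. HK1, SLC2A3, EPAS1 and BNIP3 (higher) and PGAM1 (lower) kept their calls without any 1 array, whereas HK2, BHLHE40, KDM3A and BNIP3L lost theirs without any 1 of the 4 Caco-2 arrays. Over all alternatives these 4 changes kept their sign. They ran from 0.78 to 1.06 for HK2, 1.09 to 2.36 for BHLHE40, 0.90 to 0.97 for KDM3A and 0.43 to 0.76 for BNIP3L. These shRNA arrays also had the lower ACTB gap, 1.55 against 1.92, and the higher fibroblast marker signal given above. The part of the ACTB gap was not tested.

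The difference between the lines, the HUG1N change minus the Caco-2 change, was below 0 for all 34 members. It was below 0 for 3836 of the 7696 genes tested. For SLC2A3, ENO2, PDK1 and EGLN3, 1 line was under log2 4 on every array, so the size is not fixed. PFKL turned to 0.22 with the mean of its probe sets and EGLN3 to 1.34 without HUG1N shRNA replicate 1. The difference was called lower for 22 members and higher for 0, where 22.7% of all genes were called lower and 22.2% higher. The 22 were 12 of 16 enzymes, 3 of 4 transport and flux genes and 7 of 14 other hypoxia genes. Without HUG1N shRNA replicate 1, which leaves 1 array in that group, the genes called lower were not all the same. PKM and LDHA dropped out, VEGFA and KDM3A came in, and EGLN3 was called higher. BHLHE40, BNIP3, BNIP3L, HK1, HK2 and SLC2A3 were called higher in Caco-2 and lower in HUG1N. ENO1, GBE1, GPI, PGAM1 and TPI1 were called lower in both lines, and no member was called higher in both. Over all genes, 3.86% were called higher in Caco-2 and lower in HUG1N, 6.89% lower in both and 6.29% higher in both.

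**Figure D1:**
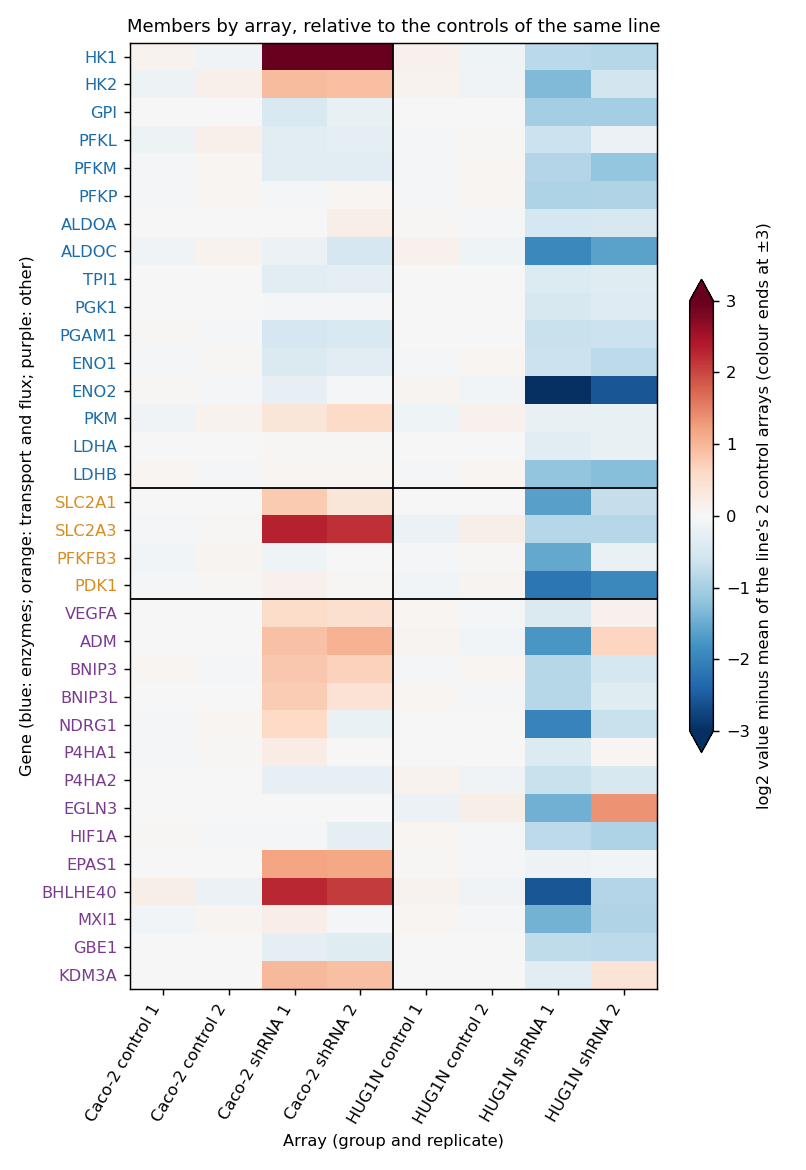
Each of the 34 tested members (rows) on each of the 8 arrays (columns), as the log2 value minus the mean of the 2 control arrays of the same line; the colour scale ends at 3 log2 units either way. The HUG1N shRNA columns are blue for nearly all genes, the Caco-2 shRNA columns are mixed, and HUG1N shRNA replicate 1 is bluer than replicate 2 for many purple-labelled genes; SLC2A3 was under log2 4 on all 4 HUG1N arrays.

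**Figure D2:**
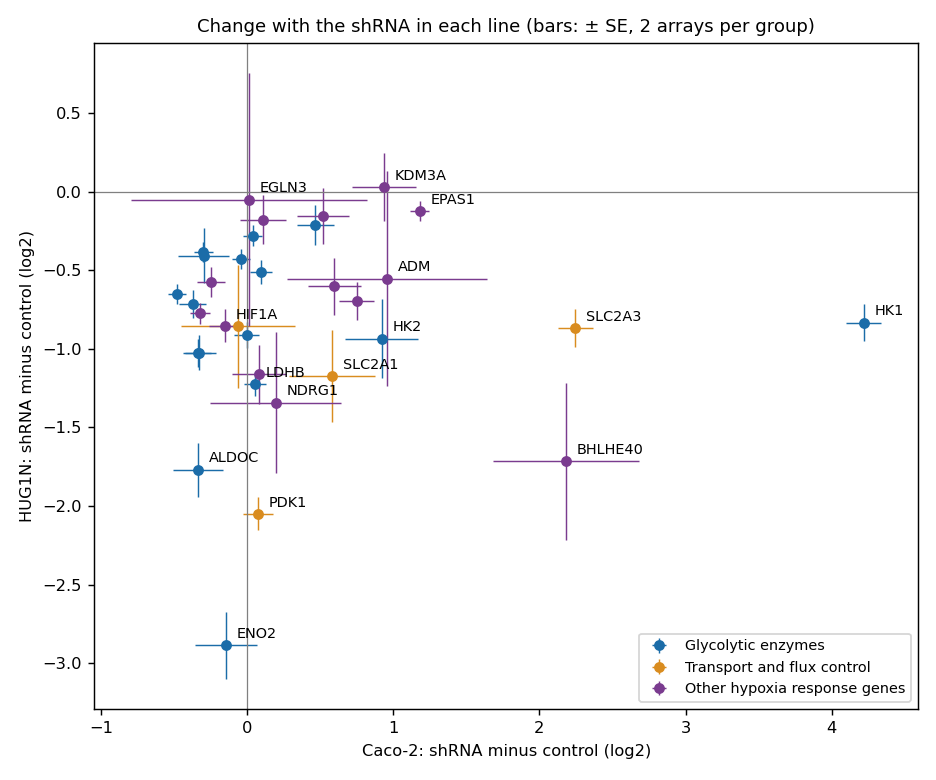
Log2 change with the shRNA in Caco-2 (horizontal) and in HUG1N (vertical) for the 34 tested members, with bars of 1 SE from the fit and 2 arrays per group. HK1 lies at 4.22 and -0.83, BHLHE40 at 2.18 and -1.72, and ENO2 at -0.15 and -2.89.

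Glucose enters cells through the facilitative transporters SLC2A1 (GLUT1) and SLC2A3 (GLUT3). SLC2A3 read 12.71 and 12.78 on the Caco-2 control arrays against 15.04 and 14.94 with the shRNA. Its HUG1N values were 3.47 and 3.82 in control and 2.78 and 2.78 in shRNA arrays, all under log2 4. In Caco-2 both shRNA arrays were far above both controls, and the change was 2.25 (SE 0.12, adjusted p = 6.68e-05), or 4.75-fold. The difference between the lines was -3.11, but its HUG1N side is near the floor and has no fixed size. The 2 other probe sets of SLC2A3 changed by 2.33 and 2.40 in Caco-2 and by 0.09 and -0.05 in HUG1N. Probes for SLC2A3 can also detect its near-identical copy SLC2A14, so the gene assignment is uncertain.

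SLC2A1 read 10.18 and 10.21 in Caco-2 control, 10.99 and 10.56 with the shRNA there, 8.51 and 8.52 in HUG1N control, and 6.88 and 7.80 in HUG1N shRNA arrays. The shRNA arrays were above the controls in Caco-2 and below them in HUG1N, with no overlap in either line. The Caco-2 change of 0.58 did not pass (SE 0.29, adjusted p = 0.173), whereas the HUG1N change of -1.17 did (SE 0.29, adjusted p = 0.0181). The HUG1N shRNA arrays differed from the control mean by -1.63 (replicate 1) and -0.71 (replicate 2). The difference between the lines was -1.75 (SE 0.42, adjusted p = 0.0167). The dimmer probe set of SLC2A1, tested on its own, changed by 1.60 in Caco-2 (adjusted p = 0.0311) and by 0.03 in HUG1N. With the mean of both probe sets the changes were 1.09 in Caco-2, called, and -0.57 in HUG1N, not called. The HUG1N call was also lost without either HUG1N control array, and the call of the difference without either Caco-2 control array or Caco-2 shRNA replicate 1.

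Hexokinase traps glucose in the cell by phosphorylation, and HK1 had the largest difference between the lines among the members. HK1 read 5.42 and 5.20, then 9.56 and 9.50 in Caco-2 control and shRNA arrays, and 11.48 and 11.20 in HUG1N control and 10.54 and 10.47 in HUG1N shRNA arrays. It was low only in the Caco-2 control arrays, and no groups overlapped. The changes were 4.22 in Caco-2 (SE 0.12, adjusted p = 4.98e-06), or 18.6-fold, and -0.83 in HUG1N (SE 0.12, adjusted p = 0.00214). HK2, the hypoxia-inducible hexokinase, read 8.86 and 9.14, then 9.94 and 9.90 in Caco-2 control and shRNA, and 10.51 and 10.32, then 9.09 and 9.87 in HUG1N control and shRNA arrays. Its changes were 0.92 (SE 0.25, adjusted p = 0.0301) and -0.93 (SE 0.25, adjusted p = 0.0227), opposite in sign. The HUG1N arrays of HK2 stood at -1.33 and -0.54 against the control mean. The second probe set of HK2 reached at most log2 4.16 and was not tested. With the mean of both the HUG1N change was -0.41 and the control difference 0.39, and neither passed.

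Of the genes of the isomerase and phosphofructokinase steps, GPI, PFKM and PFKP were called lower in HUG1N, and PFKL and PFKFB3 were not called. GPI, which isomerises glucose 6-phosphate, read 12.04 and 12.09, then 11.61 and 11.84 in Caco-2, and 12.29 and 12.28, then 11.26 and 11.26 in HUG1N, control then shRNA. Both lines had lower shRNA arrays, by -0.34 (adjusted p = 0.0287) in Caco-2 and by -1.03 (adjusted p = 0.000404) in HUG1N. Phosphofructokinase commits the sugar to glycolysis, and its muscle-type gene PFKM read 11.16 and 11.30, then 10.91 and 10.89 in Caco-2, and 10.72 and 10.83, then 9.89 and 9.61 in HUG1N. PFKM changed by -1.02 in HUG1N (SE 0.11, adjusted p = 0.00078) and by -0.33 in Caco-2, where it did not pass (adjusted p = 0.0603). The platelet type, PFKP, fell by 0.91 in HUG1N and was at 0.00 in Caco-2. The liver type, PFKL, had changes of -0.30 and -0.41 that did not pass, and its second probe set read 0.35 in HUG1N. PFKFB3, which makes the activator of phosphofructokinase, had a HUG1N change of -0.86 that did not pass (adjusted p = 0.117).

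Aldolase C (ALDOC) and the neuronal-type enolase (ENO2) showed the largest falls among the enzymes in HUG1N. ALDOC read 7.55 and 7.78 in Caco-2 control, 7.49 and 7.16 with the shRNA there, 11.40 and 11.16 in HUG1N control, and 9.35 and 9.67 in HUG1N shRNA arrays. Its HUG1N change was -1.77 (SE 0.17, adjusted p = 0.00057), or 3.41-fold lower, and its Caco-2 change of -0.34 did not pass. ENO2 read 10.31 and 10.14 in HUG1N control and 7.01 and 7.67 in HUG1N shRNA arrays, and 2.23 to 2.51 on all 4 Caco-2 arrays. The HUG1N change was -2.89 (SE 0.21, adjusted p = 0.000222), or 7.39-fold lower, and no Caco-2 array exceeded log2 4.

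The widely expressed isoenzymes changed by less. In HUG1N the aldolase ALDOA changed by -0.51, the main enolase ENO1 by -0.71, the mutase PGAM1 by -0.65, the kinase PGK1 by -0.43 and the isomerase TPI1 by -0.39, all called lower. In Caco-2, ENO1 (-0.37), PGAM1 (-0.48) and TPI1 (-0.30) were called lower, and ALDOA (0.09) and PGK1 (-0.04) were not called. With the mean of all probe sets of a gene, TPI1 changed by -0.17 in HUG1N and -0.14 in Caco-2 and lost both calls. Of the 3 probe sets of TPI1, 1 was under log2 4 on every array. With the mean of its probe sets, ENO1 lost its Caco-2 call and kept its HUG1N call. PKM, pyruvate kinase of muscle and tumours, was called higher in Caco-2 (0.47, SE 0.13, adjusted p = 0.0309) and had a HUG1N change of -0.21 that did not pass.

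Lactate dehydrogenase is a tetramer of LDHA and LDHB subunits, of which LDHA is a classic hypoxia target. LDHA read 14.91 and 14.94 in Caco-2 control, 14.95 and 14.96 with the shRNA there, 14.24 and 14.24 in HUG1N control, and 13.91 and 14.02 in HUG1N shRNA arrays. The small HUG1N change of -0.28 passed (SE 0.07, adjusted p = 0.0153), and the Caco-2 change was 0.04. LDHB read 15.61 and 15.51, then 15.61 and 15.62 in Caco-2, and 14.07 and 14.18, then 12.95 and 12.85 in HUG1N, control then shRNA. LDHB thus fell in HUG1N by 1.22 on the log2 scale (SE 0.08, adjusted p = 0.000144), or 2.33-fold, and had a Caco-2 change of 0.05. The HUG1N call of LDHA was lost without shRNA replicate 1 and without either control array.

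PDK1, like PDK3, encodes a kinase that inhibits pyruvate dehydrogenase. It read 7.45 and 7.60 in HUG1N control and 5.35 and 5.60 in HUG1N shRNA arrays, and 3.32 to 3.47 on the Caco-2 arrays. The HUG1N groups did not overlap, and the change was -2.05 (SE 0.10, adjusted p = 7.38e-05), or 4.14-fold lower. No Caco-2 array was over log2 4.

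**Figure D3:**
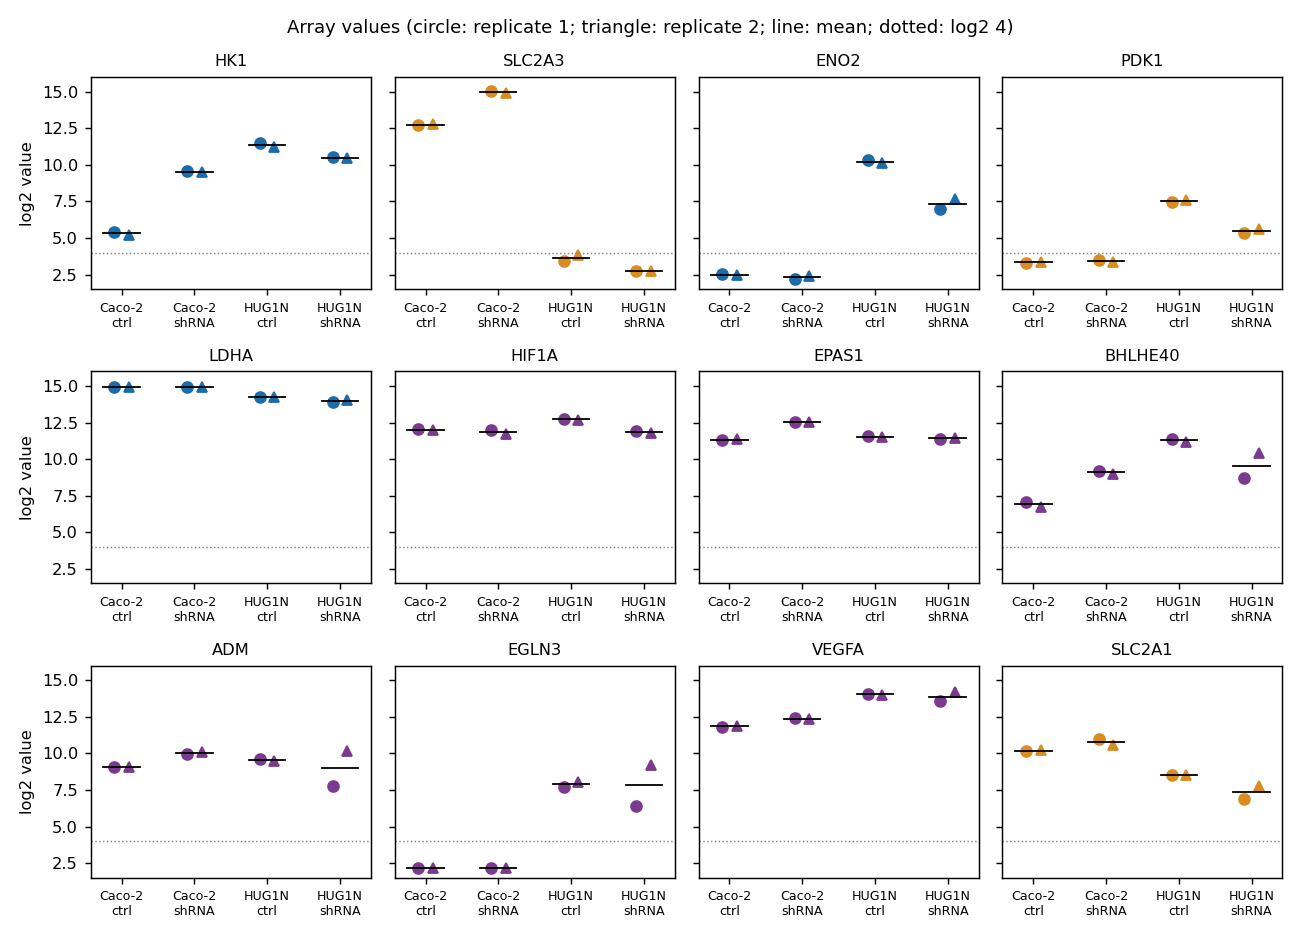
Log2 values of 12 members on the 8 arrays, with circles for replicate 1, triangles for replicate 2, a line at each group's mean and a dotted line at log2 4. HK1 is low only in Caco-2 control, ENO2 and PDK1 exceed log2 4 only in HUG1N, and the 2 HUG1N shRNA points separate for ADM, EGLN3, BHLHE40 and SLC2A1.

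The genes of the oxygen-regulated subunits were each called in 1 line. HIF1A read 12.07 and 11.98 in Caco-2 control, 11.99 and 11.75 with the shRNA there, 12.77 and 12.67 in HUG1N control, and 11.93 and 11.81 in HUG1N shRNA arrays. Its groups overlapped in Caco-2 (-0.15, adjusted p = 0.294) and were apart in HUG1N, where it changed by -0.85 (SE 0.11, adjusted p = 0.00125), or 1.81-fold lower. EPAS1, which encodes HIF-2 alpha, read 11.33 and 11.36, then 12.53 and 12.51 in Caco-2, and 11.57 and 11.51, then 11.38 and 11.46 in HUG1N, control then shRNA. EPAS1 was called higher in Caco-2 by 1.18 (SE 0.07, adjusted p = 7.25e-05), or 2.27-fold, and had a HUG1N change of -0.12 (adjusted p = 0.166). The difference between the lines passed for both, at -0.70 for HIF1A (SE 0.15, adjusted p = 0.0112) and -1.30 for EPAS1 (SE 0.09, adjusted p = 0.00024). The second probe set of EPAS1 reached at most log2 2.09. With the mean of both, EPAS1 changed by 0.59 in Caco-2 and the difference was -0.66, both called.

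Among the other hypoxia genes, the transcriptional repressor BHLHE40 had the largest difference between the lines. It read 7.10 and 6.73, then 9.18 and 9.01 in Caco-2 control and shRNA arrays, and 11.37 and 11.18 in HUG1N control and 8.72 and 10.41 in HUG1N shRNA arrays. No groups of a line overlapped, although the HUG1N shRNA arrays stood far from each other. The changes were 2.18 (SE 0.50, adjusted p = 0.017) in Caco-2 and -1.72 (SE 0.50, adjusted p = 0.0306) in HUG1N. Without HUG1N shRNA replicate 1 the HUG1N change was -0.87, and without replicate 2 it was -2.56, both called. The HUG1N call was lost without any 1 of the Caco-2 arrays or either HUG1N control array. The second probe set of BHLHE40 was under log2 4 on every array (at most 3.72), and with the mean of both the Caco-2 change was 1.09, called.

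The mitophagy receptors BNIP3 and BNIP3L were called in the same direction as each other in each line. BNIP3 read 10.34 and 10.22, then 11.08 and 10.97 in Caco-2, and 12.00 and 12.10, then 11.20 and 11.52 in HUG1N, control then shRNA. BNIP3L read 9.42 and 9.38, then 10.16 and 9.83 in Caco-2, and 13.25 and 13.14, then 12.35 and 12.84 in HUG1N. Both were called higher in Caco-2 (0.75 and 0.60) and lower in HUG1N (-0.69 and -0.60), with adjusted p = 0.00445 and 0.0436, then 0.00444 and 0.0345. The BNIP3L calls were lost with the removal of single arrays: in Caco-2 without any 1 of its 4 arrays, and in HUG1N without either control array or shRNA replicate 1. The Caco-2 call was also lost without either HUG1N control array, and the HUG1N call without either Caco-2 control array.

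MXI1, an antagonist of MYC, read 9.93 and 10.12, then 10.23 and 9.98 in Caco-2, where the groups overlapped, and 13.83 and 13.71, then 12.34 and 12.86 in HUG1N. Its HUG1N change was -1.16 (SE 0.19, adjusted p = 0.00324). NDRG1, a stress-response gene induced by hypoxia, read 9.02 and 9.12, then 9.66 and 8.88 in Caco-2, and 14.09 and 14.12, then 12.09 and 13.44 in HUG1N. The HUG1N change of NDRG1, -1.34 (SE 0.45, adjusted p = 0.048), was just past the threshold and was -0.67 (adjusted p = 0.15) without shRNA replicate 1. Of the single arrays, only HUG1N shRNA replicate 2 could be left out with the call kept. The glycogen branching enzyme gene GBE1 was called lower in both lines (-0.32 and -0.77). Of the collagen prolyl hydroxylases, P4HA2 was called lower in HUG1N (-0.57), and P4HA1 (-0.18) was not.

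The 2 HUG1N shRNA arrays differed from each other in a block of hypoxia genes. Of 33 members over log2 4 on both arrays, 11 were higher in replicate 2 by more than 0.5 log2 units, and 0 were higher in replicate 1 by that much. Over all genes these shares were 2.35% and 2.87%. The 11 were ADM, BHLHE40, EGLN3, ENO2, HK2, KDM3A, MXI1, NDRG1, PFKFB3, SLC2A1 and VEGFA, or 7 of 14 other hypoxia genes, 2 of 3 transport and flux genes and 2 of 16 enzymes. No member differed by more than 0.5 between the arrays of either control group, and 1, NDRG1, did so in Caco-2 shRNA, where replicate 1 was higher. In a further list of 28 hypoxia targets, 17 genes were over log2 4 on both arrays, with a median gap of 0.13. Of these, ANGPTL4, DDIT4 and PLOD2 were higher in replicate 2 by more than 0.5, and 0 were higher in replicate 1 by that much. Both HUG1N groups also differed between replicates in the poly-A spike controls, which averaged 8.33 and 6.79 in control replicates 1 and 2 and 7.82 and 6.57 in shRNA replicates 1 and 2, and their part in the gap was not tested.

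**Figure D4:**
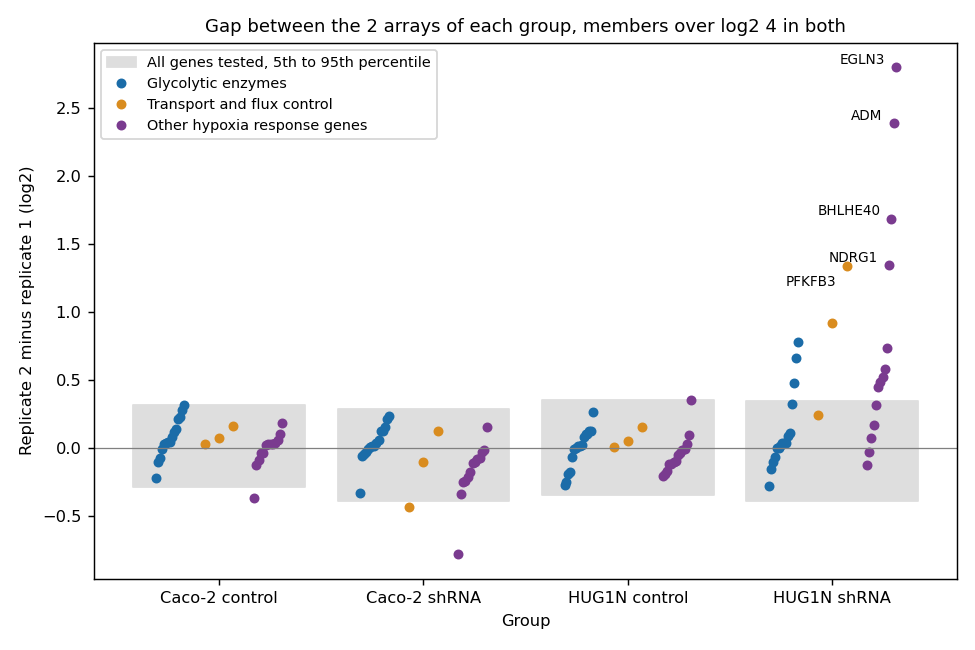
Replicate 2 minus replicate 1 in log2 units within each of the 4 groups, 1 point per member over log2 4 on both arrays, with the 5th to 95th percentile of all tested genes in grey. In HUG1N shRNA, EGLN3 (2.80), ADM (2.39), BHLHE40 (1.69), NDRG1 (1.34) and PFKFB3 (1.34) lie far above the grey band, and no member lies below it.

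Because of this gap, a mean hid opposite values for some members, which were singled out after their values were seen. ADM, the vasodilator peptide adrenomedullin, read 9.63 and 9.46 in HUG1N control but 7.79 and 10.18 in HUG1N shRNA arrays. EGLN3, the oxygen sensor PHD3 that is itself induced by hypoxia, read 7.69 and 8.05, then 6.42 and 9.22. KDM3A, a histone demethylase, read 11.10 and 11.08, then 10.75 and 11.49. In each, 1 shRNA array lay below both controls and the other above both. Their HUG1N changes were -0.55, -0.05 and 0.03, none called. Without shRNA replicate 1 all 3 were called higher (0.64, 1.35 and 0.40), and without replicate 2 all 3 were called lower (-1.75, -1.45 and -0.34). PFKFB3, PFKL, P4HA1 and VEGFA were also called lower without replicate 2, at -1.53, -0.65, -0.40 and -0.45. Of these, P4HA1 (13.01 and 12.97, then 12.58 and 13.04) and VEGFA (14.09 and 13.99, then 13.59 and 14.17) likewise had shRNA arrays on either side of both controls. Both shRNA arrays of PFKFB3 and PFKL lay below both controls.

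The same removal moved the counts: fewer members were called lower in HUG1N without shRNA replicate 1 than without replicate 2. Such a fit leaves 1 HUG1N shRNA array, and the share of all genes called in it is not given. These counts are therefore not read as a trait of the members. ADM in Caco-2 shows how the shared spread acted: it read 9.05 and 9.08 in control and 9.94 and 10.09 in shRNA arrays, with no overlap, yet the change of 0.96 had an SE of 0.69 (adjusted p = 0.321). With Caco-2 fitted alone its adjusted p was 0.00508. Without either HUG1N shRNA array, ADM, SLC2A1, VEGFA and PFKM passed in Caco-2 and PKM did not. KDM3A was called higher in Caco-2 (0.93, SE 0.22, adjusted p = 0.0184), and EGLN3 was at 2.14 to 2.17 on all Caco-2 arrays.

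VEGFA, the main angiogenic growth factor among hypoxia targets, gave values that depended on the probe set. The brightest one read 11.84 and 11.88, then 12.42 and 12.34 in Caco-2, and 14.09 and 13.99, then 13.59 and 14.17 in HUG1N, control then shRNA. The shRNA arrays were above the controls in Caco-2 and overlapped them in HUG1N. Neither the Caco-2 change of 0.52 (adjusted p = 0.0629) nor the HUG1N change of -0.16 (adjusted p = 0.51) passed. The 3 other probe sets, each tested on its own, changed by 0.84, 1.30 and 0.65 in Caco-2 and by -1.20, -2.13 and -1.54 in HUG1N, all called. For these probe sets the difference between the lines was -2.04, -3.44 and -2.19, against -0.68 for the brightest.

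The control arrays of the 2 lines differed in most members before any comparison with the shRNA. In HUG1N, 22 of 34 members were called higher than in Caco-2 and 7 lower, where 37.1% of all genes were called higher and 41.3% lower. Of the other hypoxia genes, 12 of 14 were called higher and 1, P4HA2, lower, and their median difference was 2.10 against -0.05 for all genes. Of the 16 enzymes, 9 were higher and 4 lower, with a median of 0.79. The 5 largest called differences towards HUG1N were in ENO2, HK1, EGLN3, NDRG1 and BHLHE40. For ENO2 and EGLN3, whose Caco-2 arrays were all under log2 4, the bounds were at least 74.6-fold and at least 14.6-fold higher. HK1 was 6.03 log2 units higher (SE 0.12), NDRG1 5.03 (SE 0.45) and BHLHE40 4.36 (SE 0.50), with adjusted p of 1.1e-07, 6.83e-05 and 0.00024. These control arrays enter the shRNA comparisons too, so a member with a high control value in 1 line is not independent of its change in that line.

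The 5 largest differences towards Caco-2 were led by SLC2A3, at least 428-fold higher in Caco-2. SLC2A1 followed at -1.68 (SE 0.29), LDHB at -1.44 (SE 0.08), LDHA at -0.68 (SE 0.07) and P4HA2 at -0.46 (SE 0.10), with adjusted p of 0.0019, 6.63e-06, 0.000114 and 0.00427. Both glucose transporters and both lactate dehydrogenase subunits were therefore higher in Caco-2 control, while most other hypoxia genes were higher in HUG1N control. PDK1 was at least 11.5-fold higher in HUG1N.

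**Figure D5:**
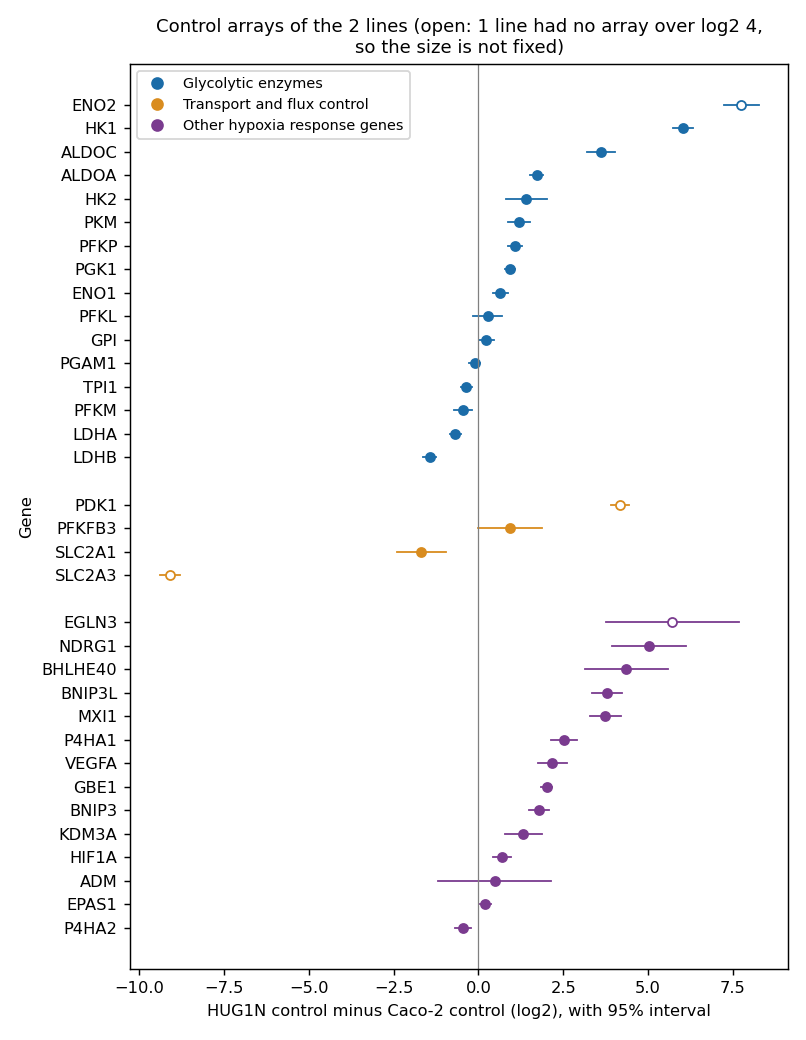
HUG1N control minus Caco-2 control in log2 units for the 34 tested members, by class, with 95% intervals from the fit and 2 arrays per line. Open points mark genes with no array over log2 4 in 1 line; most purple points lie to the right of 0, and SLC2A3 lies farthest to the left.

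Other genes of the same pathways were counted from lists chosen by role, also with earlier results of these data known. Among 21 tested of 28 further hypoxia targets, 5 were called higher and 5 lower in Caco-2, and 1 was called higher and 13 lower in HUG1N, with medians of -0.005 and -0.50. Over all genes, 19.5% were called higher and 19.2% lower in Caco-2, and 24.7% higher and 23.9% lower in HUG1N. The carbonic anhydrase CA12 changed by -2.76 in Caco-2 and -2.13 in HUG1N, the glycogen synthase GYS1 by 1.26 and -0.34, and the mitochondrial protein FAM162A by -0.90 and -0.50, all called. The lipid droplet protein HILPDA changed by 0.54 in Caco-2 and -2.41 in HUG1N. HMOX1, haem oxygenase, rose by 0.54 in Caco-2 and was at least 2.71-fold lower in HUG1N, with both shRNA arrays under log2 4. TFRC, the transferrin receptor, was the 1 called higher in HUG1N (0.31).

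Of 10 tested regulators of the hypoxia-inducible factors, 1 was called higher and 1 lower in Caco-2 (19.5% and 19.2% of all genes), and 3 higher and 1 lower in HUG1N (24.7% and 23.9%). HIF1AN, the asparagine hydroxylase that inhibits the factor, was the 1 called lower in each line, by -1.27 (SE 0.12, adjusted p = 0.000674) and -0.98 (SE 0.12, adjusted p = 0.00141). The coactivator binder CITED2 was called higher in Caco-2 (0.73), and CUL2 (0.42), ARNT (0.39) and CREBBP (0.53) in HUG1N.

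Genes of the steps around glycolysis were called in both directions in HUG1N. Of 9 tested genes that carry pyruvate to acetyl-CoA, 4 were called higher and 0 lower in HUG1N, where 24.7% and 23.9% of all genes were: DLD (0.77), MPC1 (0.37), DLAT (0.31) and PDHB (0.35). In Caco-2, 1 was called higher, PDHX (0.31), and 3 lower, among them PDHA1 (-0.61) and DLAT (-0.37), where 19.5% and 19.2% of all genes were. Of 13 tested genes of the tricarboxylic acid cycle, 0 were called higher and 7 lower in Caco-2, led by SUCLG1 (-0.73), SUCLG2 (-0.73) and CS (-0.45), and 2 were called higher and 5 lower in HUG1N, led by SDHC (0.48), IDH3G (-0.51) and CS (-0.52). Across both lines, the difference was called higher for 5 and lower for 1 of these 13 genes, against 22.2% and 22.7% of all genes.

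The remaining lists are small, and their counts stand beside shares of all genes called of 19.5% higher and 19.2% lower in Caco-2 and 24.7% higher and 23.9% lower in HUG1N. The pentose phosphate pathway, which draws on glucose 6-phosphate, had 2 of 6 genes called higher and 1 lower in Caco-2, and 1 higher and 2 lower in HUG1N. The ribose isomerase RPIA was called lower in both lines (-1.39 and -1.07), and PGD was called lower in HUG1N (-0.63). Of 4 tested genes of gluconeogenesis, 3 were called lower in Caco-2 and 1 in HUG1N, and PCK2 was called lower in both (-0.67 and -1.30). Of 4 other glycolytic isoenzymes, 0 were called in Caco-2, and BPGM was called lower (-0.95) and ADPGK higher (0.34) in HUG1N. Of 12 regulators of the MYC and PI3K pathways, 2 were called higher and 0 lower in Caco-2, led by TXNIP, an inhibitor of glucose uptake, at 1.10. In HUG1N 5 were called higher and 3 lower, among them MTOR (0.65), TIGAR (0.92) and AKT1 (-0.42).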

How the data were processed

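The authors deposited 1 log2 expression value per probe set and array, made with GCRMA per the submitters' processing notes (background correction by probe base content, equalised distributions, summary over probes). The sources used here give neither version nor settings. Of 22277 probe sets, 19070 had 1 gene symbol, 1043 several and 2164 none in the platform's table, and only those with 1 were used. Symbols were updated through Entrez identifiers for 19058 of them (GRCh38.p14).

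limma 3.58.1 in R 4.3.3 was fitted to the 4 group means (lmFit, eBayes), with Benjamini-Hochberg adjustment over 7696 genes per comparison and calls at an adjusted p under 0.05. The 8 arrays gave each gene a common spread (4 residual degrees of freedom), moderated by a prior with 2.17 degrees of freedom and a standard deviation of 0.0989. A change against a group with no array over log2 4 is given as a bound, the brighter mean against 4, or not at all. The fit was tested on simulated data.

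The members and lists were chosen with earlier results of these data known. Array values are given for members called with at least 1 log2 unit in an shRNA comparison or in the difference between lines, and for SLC2A1, LDHA, VEGFA, HIF1A and EPAS1. For the controls the rule took up to 5 called differences each way, and for each list up to 3 genes per line by p. Whether equal replicate numbers pair arrays is not known, and the fit treated the arrays as unpaired. The correlation of deviations between control and shRNA arrays was 0.12 in Caco-2 and -0.06 in HUG1N, which cannot settle it. Alternatives covered filters, normalization, variance model, arrays fitted, probe sets, the floor, each array left out, a block for the replicate number and a 2-fold minimum.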

Additional observations from a re-analysis of the deposited data

Results flagged for a closer look

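The change with the shRNA differed between the lines for 22 members, by the test of the difference itself (HUG1N change minus Caco-2 change, limma, adjusted p under 0.05), where 22.7% of all genes were called lower in this test. Each line had 2 control and 2 shRNA arrays, and the differences are in log2 units. The largest were HK1 at -5.05, BHLHE40 at -3.90, SLC2A3 at -3.11, ENO2 at -2.74 and PDK1 at -2.13, of which SLC2A3, ENO2 and PDK1 had 1 line under log2 4 on every array. HK2 was at -1.85, SLC2A1 at -1.75, BNIP3 at -1.44, ALDOC at -1.43, EPAS1 at -1.30, LDHB at -1.28, MXI1 at -1.25 and BNIP3L at -1.20. The smaller ones were PFKP at -0.91, HIF1A at -0.70, PFKM at -0.70, GPI at -0.69, PKM at -0.68, ALDOA at -0.60, GBE1 at -0.45, PGK1 at -0.39 and LDHA at -0.32. The adjusted p ran from 2.02e-05 for HK1 to 0.0365 for LDHA.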

How the results depend on the processing

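Of the 90 member comparisons that were called, 65 kept their call and direction in every alternative other than the minimum of 1 log2 unit and the limit to arrays over log2 4, for which only counts are given. The rest lost the call in at least 1 setting. In Caco-2, 9 members were called higher and 5 lower. The higher count was 4 with no filter and 4 with a minimum of 1 log2 unit, and ran from 4 to 11 with each array left out. The lower count was 3 with the mean of probe sets and 0 with that minimum, and ran from 1 to 6. In HUG1N the counts were 0 and 25, with 10 lower at that minimum, 0 to 3 higher and 19 to 32 lower with an array left out. For the difference between lines they were 0 and 22, with 13 lower at that minimum, 0 to 1 higher and 17 to 28 lower. For the controls they were 22 and 7, with 3 lower at that minimum, 21 to 24 higher and 6 to 7 lower. With the replicate number as a block the counts were 8 and 5, 0 and 23, 0 and 21, and 23 and 7, in the same order. The block ended the calls of BNIP3L in both lines, of NDRG1 in HUG1N and of LDHA for the difference. The counts with an array left out come from fits with 1 array in a group and stand without the share of all genes called there. The median over all genes moved by less than 0.1 under every scaling.

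Some values that were not called changed sign with an array left out, and their ranges over those settings follow. In Caco-2 the ranges were -0.066 to 0.057 for PFKP, -0.14 to 0.019 for PFKFB3, -0.20 to 0.59 for NDRG1 and -0.041 to 0.21 for MXI1. In HUG1N they were -0.45 to 0.13 for VEGFA, -1.75 to 0.64 for ADM, -0.40 to 0.048 for P4HA1, -1.45 to 1.35 for EGLN3 and -0.34 to 0.40 for KDM3A, each with its lowest value without shRNA replicate 2 and its highest without shRNA replicate 1. For the difference they were -0.35 to 0.13 for PFKL and -1.46 to 1.34 for EGLN3. PFKL also turned to 0.22 with the mean of probe sets. PGK1 in Caco-2 turned to 0.0095 with quantile normalization and to 0.018 with the mean of probe sets, and EGLN3 there turned to -0.00017 with median centring. The cause was not tested. Counting only members with an array over log2 4 in the groups compared, chosen after seeing the data, left 24 lower in HUG1N.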
